A study of Mus musculus with 23 samples.

Results

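The 9 listed genes, Ccn1 (also written Cyr61), Ccn2 (Ctgf), Ankrd1, Myof, Thbs1, Amotl2, Ajuba, Axl and F3, were followed through all RNA-seq and Ribo-seq libraries of the series. They are 9 of the 22350 protein-coding genes in the files, and they were listed by name as known targets of YAP, without a threshold on any measured value. They were chosen with earlier results of these data known. The study had reported a YAP target signature in its RNA-seq of Rptor fl/fl organoids, and higher Myof and Ankrd1 by RT-qPCR. RNA-seq was carried out on intestinal organoids, epithelial cultures grown from crypts of C57BL/6 mice. There were 2 WT lines (VillinCre.ERT2.RPL22.HA, labelled untreated), 2 Rptor fl/fl lines (VillinCre.ERT2.Rptor.fl/fl, labelled untreated and without the RPL22.HA allele) and 3 stem cell enriched (SCe) lines (VillinCre.ERT2.RPL22.HA grown with CHIR99021 at 10 µM and valproic acid at 1.5 mM). Ribo-seq, which sequences the mRNA fragments that ribosomes protect (footprints) after pulldown of HA-tagged RPL22, was carried out on 3 organoid libraries labelled Rptor fl/fl (VillinCre.ERT2.Rptor.fl/fl.RPL22.HA) and 3 of SCe, and on the small intestine of 3 Lgr5Cre.ERT2.RPL22.HA (WT) mice and of 3 mice labelled Lgr5Cre.ERT2.Rptor.fl/fl.RPL22.HA (Rptor fl/fl). Rptor encodes Raptor, a subunit of mTORC1. The Villin promoter drives Cre throughout the intestinal epithelium and the Lgr5 promoter in intestinal stem cells, so that deletion and tagging are meant to be limited to these cells. Although all mice are labelled untreated as well, the study's methods describe induction of Cre with tamoxifen in mice and in organoids.

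YAP and its paralog TAZ (Wwtr1) are transcriptional co-activators without a DNA-binding domain of their own. When the Hippo kinases MST and LATS are active they phosphorylate YAP and keep it in the cytoplasm, and when these kinases are inactive YAP enters the nucleus and binds TEAD factors at enhancers and promoters, often beside AP-1. In the intestine YAP is largely dispensable for steady-state turnover and is known for its role in regeneration after damage, where it accompanies a fetal-like program. Ccn1, Ccn2 and Thbs1 encode secreted matricellular proteins, Axl a receptor tyrosine kinase, F3 tissue factor, the membrane receptor that starts coagulation, and Myof the membrane repair protein myoferlin. Ankrd1 encodes an ankyrin repeat protein of muscle and nucleus, while Amotl2, an angiomotin that binds YAP, and Ajuba, a LIM protein that binds LATS kinases, act back on the pathway.

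On mm10, Ccn1 (ENSMUSG00000028195.4, chr3:145646976-145649981), Ankrd1 (ENSMUSG00000024803.9, chr19:36111961-36120099), Myof (ENSMUSG00000048612.16, chr19:37899036-38043577), Ajuba (ENSMUSG00000022178.11, chr14:54567472-54577558) and Axl (ENSMUSG00000002602.16, chr7:25757273-25788705) lie on the minus strand. Ccn2 (ENSMUSG00000019997.11, chr10:24595442-24598683), Thbs1 (ENSMUSG00000040152.8, chr2:118111876-118127133), Amotl2 (ENSMUSG00000032531.15, chr9:102716672-102733418) and F3 (ENSMUSG00000028128.13, chr3:121723537-121735048) lie on the plus strand. The genomic sequence at the starts of these genes was looked at for the letters that TEAD and AP-1 are known to bind. RefSeq promoter windows on GRCm38.p6, the build named mm10 in the study, run from 250 bases before to 50 bases after a start and were given for 7 of the 9 genes, all but Ccn2 and Thbs1. The TEAD core GGAATG, read on both strands and thus also as CATTCC, was found in 5 of these 7 windows, against 14.7% of all 32851 windows. The AP-1 site TGANTCA, which reads the same on both strands, was found in 1 of the 7, against 7.8% of all windows. No match overlapped another. Ankrd1 and Ajuba, the genes with 2 TEAD cores each, Ccn1 with its single core, and F3 with a pair of AP-1 sites are shown whole, from 5′ to 3′ on the gene's strand, with the matches in capitals, and Amotl2 and Axl by their core with 12 bases on either side.
Ankrd1 (chr19:36119795-36120094, minus strand): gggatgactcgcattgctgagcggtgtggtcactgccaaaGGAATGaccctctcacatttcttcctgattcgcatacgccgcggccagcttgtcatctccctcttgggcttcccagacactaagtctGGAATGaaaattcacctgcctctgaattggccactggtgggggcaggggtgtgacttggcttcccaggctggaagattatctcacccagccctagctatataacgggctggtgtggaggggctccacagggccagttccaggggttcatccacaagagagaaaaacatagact
Ajuba (chr14:54577612-54577911, minus strand): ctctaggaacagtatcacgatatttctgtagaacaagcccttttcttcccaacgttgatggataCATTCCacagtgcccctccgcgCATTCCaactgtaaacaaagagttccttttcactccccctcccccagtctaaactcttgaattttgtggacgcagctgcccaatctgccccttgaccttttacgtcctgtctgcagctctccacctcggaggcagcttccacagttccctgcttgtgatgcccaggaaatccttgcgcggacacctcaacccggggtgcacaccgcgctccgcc
Ccn1 (chr3:145649936-145650235, minus strand): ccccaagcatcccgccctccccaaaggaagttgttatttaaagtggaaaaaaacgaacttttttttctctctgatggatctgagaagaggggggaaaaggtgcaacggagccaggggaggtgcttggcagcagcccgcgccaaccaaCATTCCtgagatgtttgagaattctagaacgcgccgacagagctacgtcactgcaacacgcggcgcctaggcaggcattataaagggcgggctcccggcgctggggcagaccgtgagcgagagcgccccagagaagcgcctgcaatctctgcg
F3 (chr3:121723287-121723586, plus strand): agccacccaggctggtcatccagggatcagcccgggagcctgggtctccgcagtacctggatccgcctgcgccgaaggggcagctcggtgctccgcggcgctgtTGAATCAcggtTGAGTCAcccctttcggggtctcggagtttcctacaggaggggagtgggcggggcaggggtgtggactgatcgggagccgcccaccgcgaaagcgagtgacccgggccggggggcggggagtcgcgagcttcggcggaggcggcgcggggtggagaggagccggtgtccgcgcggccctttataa
Amotl2 (within chr9:102717554-102717853, plus strand): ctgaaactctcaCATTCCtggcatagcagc
Axl (within chr7:25788684-25788983, minus strand): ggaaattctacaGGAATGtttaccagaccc

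The first bases of the cores lay 210 and 123 bases before the start of Ankrd1, 186 and 164 before that of Ajuba, 103 before that of Ccn1, 65 before that of Amotl2 and 233 before that of Axl. The AP-1 sites of F3 began 146 and 135 bases before its start. Myof (window chr19:38043528-38043827, minus strand) held neither motif. A match says only that these letters are in the window.

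**Figure D1:**
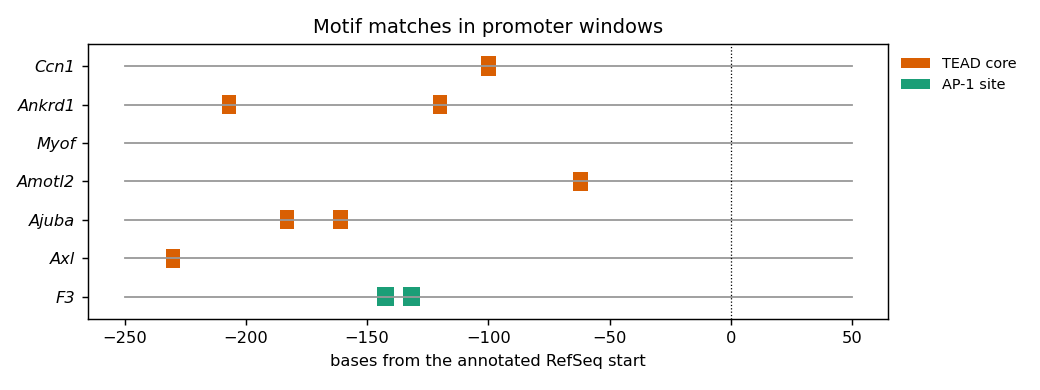
Positions of TEAD core (orange) and AP-1 (green) matches along the RefSeq promoter windows of 7 genes, with the x axis in bases from the annotated start (dotted line) and 1 grey line per gene from 250 bases before to 50 bases after it. Ankrd1 and Ajuba hold 2 TEAD cores each, F3 holds 2 AP-1 sites and Myof holds none.

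Salmon assigned 23802944 to 67598878 reads per RNA-seq library, 5992941 to 8257457 footprints to coding sequences per organoid library labelled Rptor fl/fl, 1106178 to 4242425 per SCe library and 772077 to 8238388 per mouse library. Where no source says whether samples of a group came from separate animals, p-values measure only the spread between these samples. Levels are given as CPM, counts per 1000000 of the scaled library size. The deleted gene was looked at first. The WT lines had 51.4 and 47.8 CPM of Rptor mRNA, those with the deletion 14.9 and 15.4 CPM and the SCe lines 53.6 to 60.6 CPM, a log2 fold change of −1.71 against WT (edgeR quasi-likelihood test, Benjamini-Hochberg adjusted p = 0.00516). Footprints on Rptor did not separate the organoid groups in the same way, with 16.2 to 19.0 CPM in the libraries labelled Rptor fl/fl and 14.7 to 41.4 CPM in SCe (log2 fold change −0.53, edgeR adjusted p = 0.318). In mice they stood at 39.3 to 44.9 CPM in WT and 32.5 to 37.2 CPM in Rptor fl/fl (−0.28, edgeR adjusted p = 0.15). All the organoid Ribo-seq libraries labelled Rptor fl/fl are alike in this, so no result could be given without them. Epithelial markers were present in every group, and markers of other cell types were low in organoids, where the 6 fibroblast markers summed to at most 6.23 CPM, the 5 endothelial markers to at most 2.92 CPM and the 5 immune markers to at most 0.73 CPM. The 6 smooth muscle markers reached the highest sums, 1.84 to 14.2 CPM in SCe footprints and 3.69 to 5.62 CPM in organoid footprints labelled Rptor fl/fl, with Tagln at 0 in both, and at most 1.62 CPM in RNA-seq. The part of such cells in the footprint results was not tested.

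In RNA-seq, Rptor fl/fl organoids were compared with WT organoids to find out which of the YAP targets differ in mRNA between them. The WT lines carry the RPL22.HA allele and the Rptor fl/fl lines do not. Effects of this allele and of the Rptor deletion cannot be told apart here. All 8 of the 9 genes that had enough counts to be tested rose, by 1.13 to 6.53 on the log2 scale, with a median of 1.95 against −0.0049 over all 14131 genes tested. For comparison, 11.6% of all genes tested were called higher and 11.0% lower at an adjusted p under 0.05. None of the 8 was lower. The value of the lower Rptor fl/fl line was above that of the higher WT line for each of the 8 genes. With so few lines many genes can separate in this way, and their share over all genes was not counted. The separation is therefore a description only. More cells that express a gene and more RNA per cell cannot be told apart in such bulk samples.

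Among the secreted proteins, Ccn1, which binds integrins, stood at 6.43 and 5.09 CPM in WT and at 21.4 and 16.2 CPM in Rptor fl/fl (log2 fold change 1.70, SE 0.19, edgeR adjusted p = 0.0127). Its relative Ccn2, the connective tissue growth factor, went from 2.21 and 1.19 CPM to 21.1 and 7.48 CPM (3.06, SE 0.61, edgeR adjusted p = 0.0308). The Rptor fl/fl lines were thus closer to each other in Ccn1 than in Ccn2. Thbs1, which encodes thrombospondin-1, an adhesive protein that can activate TGF-beta, went from 10.1 and 13.5 CPM to 110 and 72.7 CPM (2.94, SE 0.26, edgeR adjusted p = 0.0101). Its fold was close to that of Ccn2, with a smaller standard error.

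Ankrd1 had the largest fold of all. It was at the limit of detection in WT, with 3 counts in each line (0.057 and 0.06 CPM), and had 434 and 165 counts in the Rptor fl/fl lines (8.47 and 2.87 CPM). The ratio of the summed counts, scaled to library size, was 94.3, with an exact 95% counting interval from 43.1 to 258 that covers counting error only (edgeR adjusted p = 0.0146). Per length, on the scale given below for levels between genes, Ankrd1 stood at 4.82 ± 3.40 (SD, n = 2) in Rptor fl/fl, below the mean of every other listed gene but Axl, with a range that overlapped that of Ccn2.

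Membrane proteins moved in the same direction with different spreads. Myof, expressed at 55.3 and 30.7 CPM in WT, reached 269 and 127 CPM in Rptor fl/fl (2.20, SE 0.46, edgeR adjusted p = 0.0341). F3 went from 26.4 and 29.1 CPM to 59.6 and 61.9 CPM (1.13, SE 0.08, edgeR adjusted p = 0.00891), which was the smallest change and the most even between lines. Axl had 5 and 3 counts in WT and 13 and 8 in Rptor fl/fl, too few to be tested, and the ratio of the sums was 2.48 with a counting interval from 1.06 to 6.47.

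The pathway regulators among the targets rose to a like extent. Ajuba went from 23.1 and 20.4 CPM in WT to 83.1 and 56.6 CPM in Rptor fl/fl (1.68, SE 0.20, edgeR adjusted p = 0.0137). Amotl2 went from 10.7 and 9.66 CPM to 33.5 and 23.6 CPM (1.48, SE 0.18, edgeR adjusted p = 0.0149).

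The technical libraries of a line differed little, by a median of 1.06-fold and at most 1.26-fold over 29 pairs of values with at least 50 counts in each library. For Amotl2 the libraries of WT line 1 differed by 1.26-fold, more than the WT lines did. Rptor fl/fl line 1 was above line 2 in 8 of the 9 genes and below it only in F3, while the lines were alike in Rptor itself. The same line was lower in the stem cell genes Lgr5, with 44.8 against 73.5 CPM, and Olfm4, with 526 against 1671 CPM. The part of these differences in the results was not tested. Without Rptor fl/fl line 1 all 8 genes kept their direction, and Ccn2 (2.14, edgeR adjusted p = 0.0553) and Myof (1.57, edgeR adjusted p = 0.0733) no longer passed. Ccn2 also missed the threshold without WT line 1 (3.57, edgeR adjusted p = 0.0537) or WT line 2 (2.68, edgeR adjusted p = 0.0802), and Myof without WT line 2 (1.83, edgeR adjusted p = 0.0769). In a fit over all RNA-seq lines, SCe included, 5 genes passed, and Ccn1 (edgeR adjusted p = 0.31), F3 (0.178) and Myof (0.0538) did not.

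**Figure D2:**
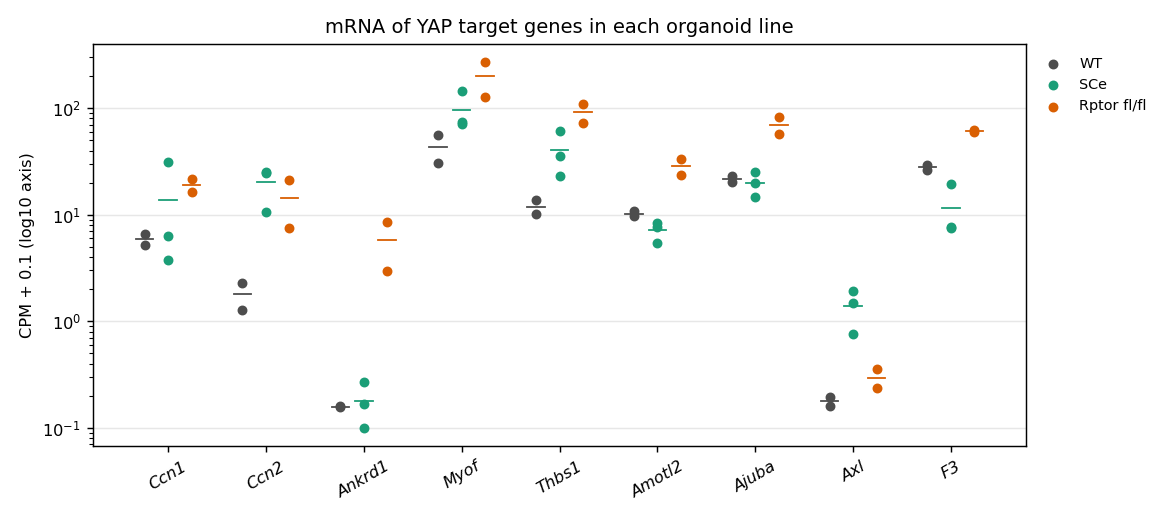
mRNA levels of the 9 genes (x axis) as CPM plus 0.1 on a log10 axis, with 1 point per organoid line for WT (grey, 2 lines), SCe (green, 3 lines) and Rptor fl/fl (orange, 2 lines) and a bar at each group mean. The Rptor fl/fl lines lie above both WT lines for every gene, and Ankrd1 is near the floor in WT and SCe.

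SCe organoids carry the WT genotype and were grown with both compounds to enrich stem cells, and the study used them as the reference for Ribo-seq. Of 5 stem cell markers none was called higher than in WT (background 22.4%) and 2 were lower (background 19.9%). These were Olfm4 (log2 fold change −5.55, edgeR adjusted p = 0.00351) and Ascl2 (−1.81, edgeR adjusted p = 0.0093). The fold change was positive for 3 of the 5 without passing, among them Smoc2 (0.98, edgeR adjusted p = 0.0676) and Lgr5 (0.35, edgeR adjusted p = 0.244). The stem cell markers were thus mixed in mRNA. Of the YAP targets, 3 of the 8 tested were higher than in WT (background 22.4%) and none was lower (background 19.9%), with a median log2 fold change of 1.22 against 0.02 over all 14925 genes tested. Ccn2 had 24.7, 10.5 and 24.9 CPM in SCe (log2 fold change 3.58, SE 0.55, edgeR adjusted p = 0.00759), and no SCe line overlapped the WT lines. Thbs1 had 61.4, 23.0 and 35.8 CPM (1.78, SE 0.46, edgeR adjusted p = 0.032), again above both WT lines. Axl, which receives the ligand Gas6, rose from a few counts to 20, 88 and 105 counts, or 0.667, 1.39 and 1.80 CPM (4.04, SE 0.63, edgeR adjusted p = 0.00782), and stayed a rare mRNA. In SCe organoids the 2 smooth muscle and 2 fibroblast markers that could be tested, of 6 each, were also called higher than in WT. The 6 markers of each list summed to at most 0.16 and 0.49 CPM in WT. In SCe they summed to 1.27 to 1.62 and 3.97 to 6.23 CPM. The part of such cells in the Axl result was not tested.

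The other genes did not pass in SCe against WT. SCe line 1 stood apart in several of them and was also the shallowest of the 3, at 27439459 reads against 67598878 and 59404042. Ccn1 was at 30.9 CPM in line 1 and at 3.67 and 6.22 CPM in lines 2 and 3, below the higher WT line (1.25, edgeR adjusted p = 0.353), and the fold change became −0.21 without line 1. Myof was at 145 CPM in line 1 and at 71.5 and 73.5 CPM in the others (1.19, edgeR adjusted p = 0.0843). F3 lay below WT in each line, at 19.2, 7.49 and 7.41 CPM (−1.28, edgeR adjusted p = 0.0823). Amotl2, with 7.63, 5.33 and 8.32 CPM, was below both WT lines without passing (−0.50, edgeR adjusted p = 0.134). Ajuba, with 19.9, 14.5 and 25.2 CPM, overlapped WT, and the 95% interval of its difference ran from −0.73 to 0.51. Ankrd1, with 2, 0 and 10 counts, was not tested.

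Single lines set how many genes passed. Without SCe line 1 the count was 5, with Myof (0.77, edgeR adjusted p = 0.0477) added as higher and F3 (−1.88, edgeR adjusted p = 0.000138) as lower. Without WT line 1 only Ccn2 passed (Axl edgeR adjusted p = 0.0613, Thbs1 0.179), and without WT line 2 none of the 8 did (Ccn2 edgeR adjusted p = 0.0622, Axl 0.0711, Thbs1 0.125). Without SCe line 3 Thbs1 missed the threshold (edgeR adjusted p = 0.0732).

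Rptor fl/fl and SCe organoids were then compared with each other, as the mRNA side of the Ribo-seq experiment. This comparison shares its Rptor fl/fl lines with the first and its SCe lines with the second, and so is no separate evidence for either. The groups differ in the Rptor deletion, the RPL22.HA allele and both compounds, which cannot be told apart. Of the 9 genes tested, 4 were higher in Rptor fl/fl (background 21.0%) and 1 was lower (background 21.8%), with a median log2 fold change of 1.19 against −0.01 over all 15103 genes tested. Amotl2 (2.01, SE 0.25, edgeR adjusted p = 0.004), Ajuba (1.81, SE 0.28, edgeR adjusted p = 0.0066) and F3 (2.43, SE 0.46, edgeR adjusted p = 0.0127) were higher. Each had its lowest Rptor fl/fl line above its highest SCe line. Ankrd1 was higher as well, with 599 counts in all against 12, a ratio of 69.6 with a counting interval from 39.5 to 135 (edgeR adjusted p = 0.0107). Axl was lower (−2.72, SE 0.59, edgeR adjusted p = 0.0186), as were 2 of the 3 smooth muscle and both fibroblast markers tested.

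Ccn1, Ccn2, Myof and Thbs1 did not separate Rptor fl/fl from SCe at the threshold. The intervals of their differences were wide. That of Ccn1 ran from −1.86 to 2.81 and that of Ccn2 from −1.95 to 0.96. That of Myof ran from −0.11 to 2.17 and that of Thbs1 from 0.09 to 2.28. Without SCe line 1, Ccn1 (1.92, edgeR adjusted p = 0.00272), Myof (1.44, edgeR adjusted p = 0.0133) and Thbs1 (1.63, edgeR adjusted p = 0.00443) passed as higher, which brought the count to 8, while Ccn2 did not. Without Rptor fl/fl line 1 only Amotl2 passed, and without line 2 only Ankrd1, Amotl2 and Ajuba did. Axl missed the threshold without either Rptor fl/fl line (edgeR adjusted p = 0.0807 and 0.125) and without SCe line 2 (0.0523) or line 3 (0.0513).

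**Figure D3:**
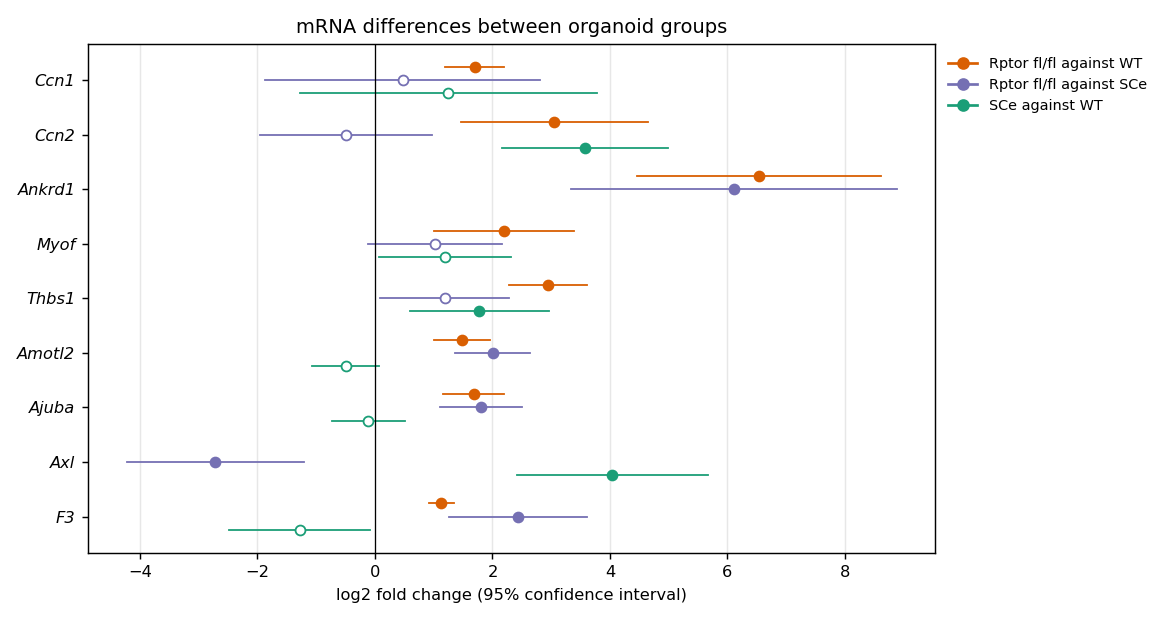
Log2 fold changes of mRNA (x axis) for each gene in Rptor fl/fl against WT (orange), Rptor fl/fl against SCe (purple) and SCe against WT (green), with 95% confidence intervals and filled points where the edgeR adjusted p is under 0.05. All 8 orange points are filled and right of 0, while Ccn2 is filled in both comparisons with WT and Amotl2, Ajuba and F3 lie left of 0 in SCe against WT.

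Ordered over the RNA-seq groups, Amotl2, Ajuba and F3 were highest in Rptor fl/fl and lowest in SCe, with the WT and SCe ranges overlapping for Ajuba. Thbs1 and Myof rose from WT through SCe to Rptor fl/fl by their means, although SCe line 1 was above Rptor fl/fl line 2 in Myof. Ccn2 was low in WT and high in both other groups, which overlapped. Ccn1 was lowest in WT by its mean, with SCe spread across the values of both other groups. Ankrd1 was above the floor in Rptor fl/fl only, apart from 10 counts in SCe line 3, and Axl was highest in SCe.

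To compare levels between genes, counts were divided by effective length and scaled to the same sum in every sample. On this scale F3 was the most abundant of the 9 mRNAs in WT, at 22.9 ± 1.82 (SD, n = 2), followed by Ajuba at 9.11 ± 0.89 and Myof at 8.95 ± 3.72, which overlapped. In Rptor fl/fl the order was led by F3 at 53.9 ± 0.29 and Myof at 45.1 ± 23.8, whose lines ranged from 28.3 to 61.9 and so included the F3 values. Ajuba at 32.1 ± 9.58 and Thbs1 at 23.6 ± 7.51 came next and overlapped. In SCe (n = 3) Myof led by its mean at 20.3 ± 12.4, and Ccn2 at 12.2 ± 6.12, Ccn1 at 11.1 ± 13.5, F3 at 9.72 ± 7.62, Thbs1 at 9.67 ± 6.32 and Ajuba at 8.12 ± 2.52 could not be ranked within their spread. Axl and Ankrd1 were the lowest in WT and SCe, below 1 in every line.

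The likeness of profiles over the 7 RNA-seq lines was measured as the root mean square difference of log2(CPM + 0.1) after centring each of 14055 genes on its own mean. Amotl2 and Ajuba were each other's nearest gene, at 0.167. After Ajuba, the genes nearest to Amotl2 were Epha2 (0.197), an ephrin receptor, and Tbc1d2 (0.209), and those nearest to Ajuba were Mslnl (0.173) and St8sia6 (0.174). The Myof profile lay nearest to Ptp4a3 (0.134), a phosphatase, Hpcal4 (0.177) and Lama5 (0.23), a laminin chain. F3 lay nearest to Il1rn (0.267), the interleukin-1 receptor antagonist, Epn3 (0.27) and Tnfrsf21 (0.278). The secreted genes had looser neighbours. Those of Thbs1 were Antxr1 (0.316), Faxc (0.32) and Glipr1 (0.374), those of Ccn1 included Nebl (0.386) and Tspan2 (0.398), and those of Ccn2 were Zfp365 (0.358), Schip1 (0.362) and Klrg2 (0.397). Ankrd1 lay nearest to Igfbp7 (0.48), AC124108.1 (0.543) and Pdgfd (0.624), a PDGF ligand. Among the 8 listed genes compared, Ankrd1 and Ccn2 were the most unlike, at 2.36.

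Further genes of a published YAP/TAZ target score were counted in the same fits. Of 15 genes, 14 were tested in Rptor fl/fl against WT, and 6 rose (background 11.6%) and 1 fell (background 11.0%), with a median log2 fold change of 0.61. Fjx1 (4.69, edgeR adjusted p = 0.0133), Igfbp3 (2.87, edgeR adjusted p = 0.0138), which binds insulin-like growth factors, and Ptpn14 (1.69, edgeR adjusted p = 0.0232), a phosphatase that binds YAP, rose. Gadd45a, a DNA damage response gene, fell (−0.84, edgeR adjusted p = 0.0199). Against SCe 4 of 14 were higher (background 21.0%) and 4 lower (background 21.8%), and in SCe against WT 4 of 13 were higher (background 22.4%) and 3 lower (background 19.9%), shares near those of all genes. Tgfb2, a TGF-beta ligand, was the gene with the smallest adjusted p of this list in SCe against WT (4.15, edgeR adjusted p = 0.0017). The 15 genes thus did not share the single direction of the 8 listed ones against WT.

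Most components of the pathway itself were not called in Rptor fl/fl against WT. Of 20 Hippo and YAP genes, which include Yap1, the TEAD factors and the kinases upstream, 3 rose (background 11.6%) and 3 fell (background 11.0%), with a median of −0.03. These shares are near those of all genes. Amotl1, a relative of Amotl2, rose (2.88, edgeR adjusted p = 0.0101), while the kinase Yes1 (−0.52, edgeR adjusted p = 0.0134), Tead2 (−0.58, edgeR adjusted p = 0.0174) and Vgll4 (−0.40, edgeR adjusted p = 0.0215), a cofactor that competes with YAP for TEAD, fell. Lats2, which is in both lists and is itself a YAP target, rose (1.16, edgeR adjusted p = 0.029), and so did Tead4 (1.61, edgeR adjusted p = 0.0416). Against SCe 8 of the 20 were higher (background 21.0%) and 5 lower (background 21.8%). In SCe against WT 4 were higher (background 22.4%) and 8 lower (background 19.9%). Wwtr1, which encodes TAZ, was higher in SCe than in WT (1.83, edgeR adjusted p = 0.00127).

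In Ribo-seq of organoids, libraries labelled Rptor fl/fl were compared with SCe to ask whether ribosome occupancy of these mRNAs differs between the states. Only F3 was called in the same direction as in mRNA of Rptor fl/fl against SCe. Of the 7 genes tested, 1 was higher (F3, background 6.63%) and 2 were lower (Thbs1 and Ccn2, background 9.84%), with a median log2 fold change of −0.58 against −0.02 over all 10817 genes tested.

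F3 footprints stood at 22.6, 18.0 and 24.8 CPM in the libraries labelled Rptor fl/fl and at 11.6, 6.76 and 8.98 CPM in SCe (log2 fold change 1.20, SE 0.27, edgeR adjusted p = 0.0182). The groups did not overlap. Thbs1 stood at 23.0, 10.3 and 17.2 CPM against 28.4, 68.5 and 161 CPM in SCe (−2.42, SE 0.56, edgeR adjusted p = 0.0204). The SCe libraries of Thbs1 were far apart, and all lay above the other group. Ccn2 had 0, 10 and 0 footprints against 29, 4 and 25 in SCe, so that its whole signal in the libraries labelled Rptor fl/fl came from 1 of them. The ratio of SCe to these was 15.8 with a counting interval from 8.03 to 34.8, and edgeR gave an adjusted p of 0.0412.

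The remaining genes did not pass. Ccn1 had 8.54 to 10.0 CPM in the libraries labelled Rptor fl/fl, inside the SCe range of 6.76 to 29.7 CPM (−0.97, edgeR adjusted p = 0.157). Myof had 28.0 to 49.8 CPM against 27.9 to 102 CPM (−0.58, edgeR adjusted p = 0.401). Amotl2 had 8.84 to 12.4 CPM against 3.68 to 10.1 CPM, where SCe library 1 held only 7 footprints (0.75, edgeR adjusted p = 0.217). Ajuba lay just below SCe in each library, with 6.37 to 7.66 CPM against 7.89 to 13.4 CPM (−0.56, edgeR adjusted p = 0.261). Ankrd1 footprints were absent from all 3 libraries labelled Rptor fl/fl, in which 3 counts would be 0.363 to 0.501 CPM, and 4, 0 and 0 in SCe. Axl had none in the former and 1, 1 and 0 in SCe. No fold was computed for these.

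These calls rested on few libraries. Without Rptor fl/fl library 1 or library 3 none of the 7 genes passed, with F3 at an edgeR adjusted p of 0.0747 and 0.0988, Thbs1 at 0.0521 and 0.0787, and Ccn2 at 0.122 and 0.127. Without library 2 Thbs1 missed the threshold (edgeR adjusted p = 0.0836). Ccn2 also missed it without SCe library 1 (0.0804) or library 2 (0.0646), and with DESeq2 (adjusted p = 0.141). The SCe libraries were the shallower ones, and 1106178 footprints in SCe library 2 left 8 on Ccn1, 8 on F3 and 4 on Ccn2. Of the other YAP/TAZ targets 1 of 8 was higher (background 6.63%) and 1 lower (background 9.84%). Of the pathway genes none of 17 was higher and 3 were lower, with the same background shares. Wwtr1 was lower (−2.61, edgeR adjusted p = 0.00149), as it was in mRNA of Rptor fl/fl against SCe (−1.57, edgeR adjusted p = 0.00435).

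**Figure D4:**
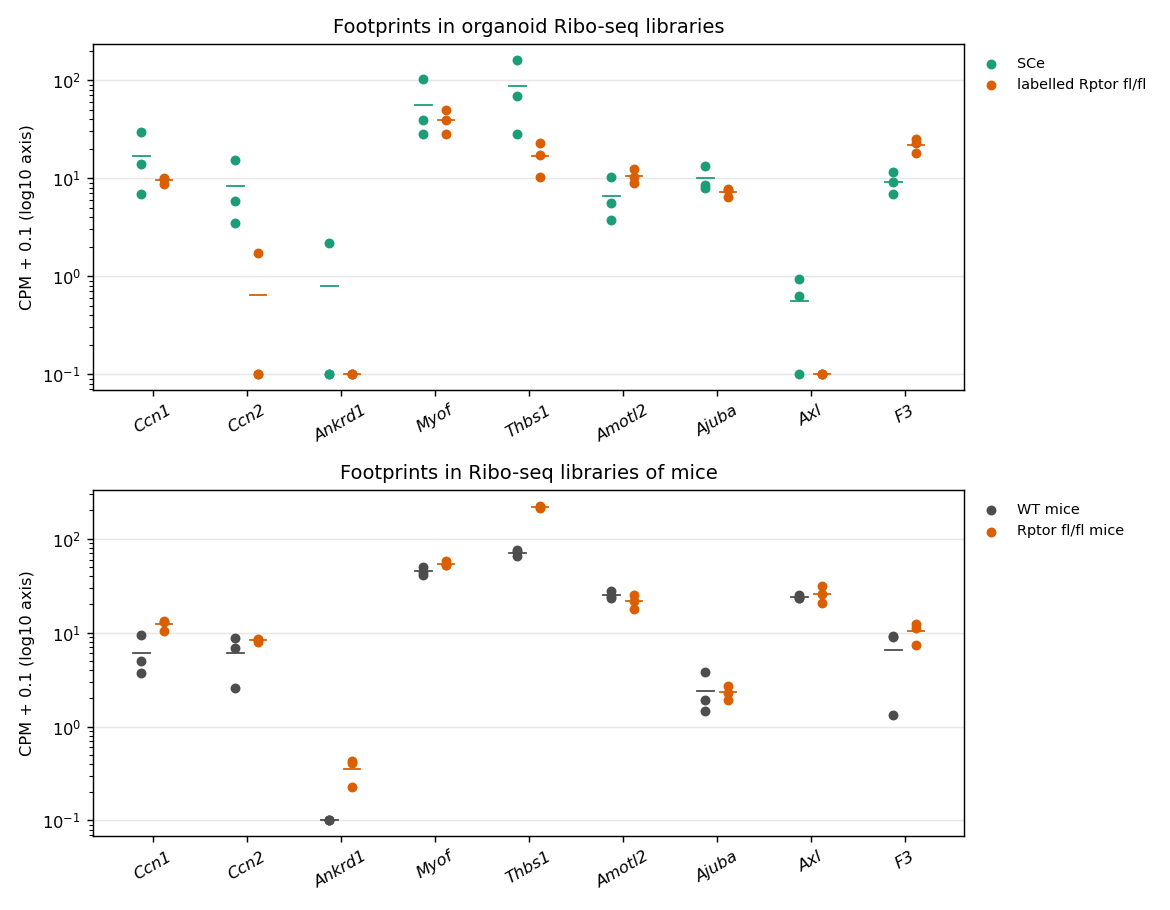
Footprint levels of the 9 genes (x axis) as CPM plus 0.1 on a log10 axis, with 1 point per library and a bar at each group mean, for organoids above (SCe green, labelled Rptor fl/fl orange) and mice below (WT grey, Rptor fl/fl orange). F3 is higher and Thbs1 and Ccn2 are lower in the organoid libraries labelled Rptor fl/fl, and Thbs1 is the gene that passed the test in mice, while Ankrd1 rests on 0 or 1 footprint per mouse.

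Translation efficiency, the change in footprints minus the change in mRNA between Rptor fl/fl and SCe, was tested as an interaction over both kinds of library. It was negative for all 7 genes tested, with a median of −1.56 against −0.03 over all 10747 genes tested. Of these, 2 were called lower (background 1.81%) and none higher (background 1.12%). Ajuba, whose mRNA was 3.51-fold higher in Rptor fl/fl while its footprints did not pass in either direction, had a difference of −2.34 (SE 0.39, edgeR adjusted p = 0.0158). Thbs1, with mRNA above and footprints below SCe, had −3.57 (SE 0.79, edgeR adjusted p = 0.0417). Ccn2 (−3.51), Myof (−1.56), Ccn1 (−1.41), Amotl2 (−1.19) and F3 (−1.18) did not pass, with edgeR adjusted p from 0.16 to 0.485. None of 8 other YAP/TAZ targets and none of 17 pathway genes was called in either direction.

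Per length, the difference shows within each group. The mean footprint value of Ajuba was 1.63 ± 0.17 (SD, n = 3) where its mRNA value was 32.1 ± 9.58 (n = 2) in Rptor fl/fl, a log2 ratio of −4.30. In SCe the footprint value was 2.18 ± 1.28 (n = 3) and the mRNA value 8.12 ± 2.52 (n = 3), a log2 ratio of −1.90. For Thbs1 the log2 ratios were −3.82 in Rptor fl/fl and −0.09 in SCe. Set against WT mRNA, the same footprints labelled Rptor fl/fl gave log2 ratios of −2.48 for Ajuba and −0.74 for Thbs1. These pair footprints with mRNA of another genotype, and what they mean for the translation efficiencies was not tested. Footprint and mRNA values were scaled within their own kind of library, so a ratio has meaning only beside another of the same kind.

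By their labels, the Rptor fl/fl mRNA and footprints were not taken from the same organoids. For SCe the labels give the same genotype and treatment in both assays and do not say whether the organoids were shared. The Rptor fl/fl lines used for RNA-seq lack the RPL22.HA allele, and Rptor itself was 1.89 lower on the log2 scale in mRNA and 0.53 lower, without passing, in footprints. Its interaction was 1.43 (edgeR adjusted p = 0.0777). Olfm4 was at 526 and 1671 CPM in Rptor fl/fl mRNA, 2861 and 4422 CPM in WT mRNA and 4358 to 4730 CPM in footprints labelled Rptor fl/fl. In SCe it was at 42.4 to 135 CPM in mRNA and 403 to 1155 CPM in footprints. CPM was scaled within each kind of library, and the interaction of Olfm4 did not pass (−1.33, edgeR adjusted p = 0.361). Lgr5 was lower than in SCe both in Rptor fl/fl mRNA (−2.13, edgeR adjusted p = 0.00656) and in footprints labelled Rptor fl/fl (−1.23, edgeR adjusted p = 0.00668). The part of such differences between the cultures in the translation efficiencies was not tested. Ajuba missed the threshold without RNA-seq Rptor fl/fl line 1 (edgeR adjusted p = 0.106) and with the replicate number as a block (0.0586). Thbs1 missed it in 10 of 16 alternatives, among them leaving out any Rptor fl/fl library of either assay, RNA-seq SCe line 2 or 3 and Ribo-seq SCe library 2 or 3, with edgeR adjusted p from 0.052 to 0.178. Without RNA-seq SCe line 1, Ccn1 (−2.87, edgeR adjusted p = 0.0215) and F3 (−1.76, edgeR adjusted p = 0.0118) passed as well.

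**Figure D5:**
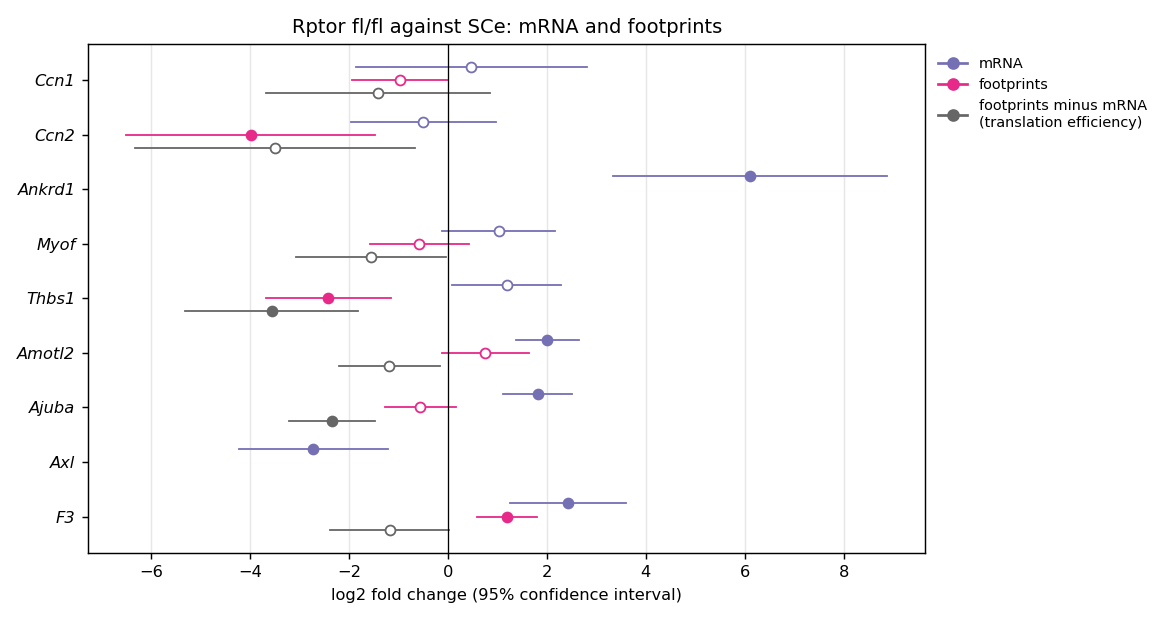
Log2 fold changes (x axis, 95% confidence intervals) of mRNA (purple) and footprints (pink) in Rptor fl/fl against SCe and of footprints minus mRNA (grey), with filled points where the edgeR adjusted p is under 0.05. All 7 grey points lie left of 0 and those of Thbs1 and Ajuba are filled, while Ankrd1 and Axl have an mRNA value only.

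In mice, footprints of the libraries labelled Lgr5Cre.ERT2.Rptor.fl/fl.RPL22.HA were compared with those of WT mice. Rptor footprints themselves did not pass in this comparison (−0.28, as given above), and markers of cells other than epithelium were abundant in both groups. Of the 7 genes tested, only Thbs1 was called, as higher (background 7.47%), and none was lower (background 5.97%). The median log2 fold change was 0.30 against −0.02 over all 11515 genes tested. Thbs1 stood at 65.2, 72.8 and 74.8 CPM in WT mice and at 215, 223 and 214 CPM in Rptor fl/fl mice (1.57, SE 0.09, edgeR adjusted p = 6.73e-09). The groups were far apart, with little spread inside each, and the change stayed between 1.55 and 1.61 in all 11 alternatives.

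Markers of some other cell types differed with the genotype in these libraries. For comparison, 7.47% of all genes tested were called higher and 5.97% lower. The 6 fibroblast markers, of which 5 were called higher, summed to 891 to 921 CPM in WT and 1125 to 1342 CPM in Rptor fl/fl mice, and the 5 endothelial markers, of which 3 were called higher, to 62.8 to 83.4 CPM and 105 to 110 CPM. Smooth muscle markers, of which 1 of 6 was called higher and 1 lower, summed to 1299 to 1486 CPM and 1264 to 1459 CPM, and immune markers, of which 1 of 4 tested was called lower, to 1220 to 1261 CPM and 960 to 1015 CPM. None of these markers was at 0 in either group, although the Lgr5 promoter is used for tagging stem cells. The largest rise among fibroblast markers was 0.58 (Col1a1, edgeR adjusted p = 0.00496) and among endothelial markers 1.32 (Emcn, edgeR adjusted p = 0.0131). The part of these cells in the Thbs1 result was not tested.

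Other genes were near the limit of depth in some mice. Ccn1 had 4.92, 3.62 and 9.35 CPM in WT and 13.1, 10.3 and 13.0 CPM in Rptor fl/fl mice, with no overlap (0.78, SE 0.27, edgeR adjusted p = 0.0737), and passed without WT mouse 3 (1.59, edgeR adjusted p = 0.0146) and without the count filter (0.80, edgeR adjusted p = 0.0354). In WT mouse 1, the shallowest, it rested on 4 footprints, Ccn2 on 2 and F3 on 1. Myof, with 40.7 to 50.4 CPM against 52.3 to 57.5 CPM, did not overlap either and did not pass (0.30, edgeR adjusted p = 0.113). Ccn2 (0.25), F3 (0.36), Amotl2 (−0.28) and Axl (0.04) overlapped between the genotypes, with edgeR adjusted p from 0.29 to 0.916. Ankrd1 had no footprint in WT and 1 in each Rptor fl/fl mouse, and Ajuba had 3 to 17 per mouse, too few to be tested. Their depth does not allow a difference to be shown.

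The mouse libraries, which were counted on other sequences than those of organoids, so that levels can be set beside them only roughly, held Axl at 20.5 to 31.0 CPM in all mice. In organoid footprints Axl was at most 0.845 CPM. Of the other YAP/TAZ targets 3 of 13 tested were higher (background 7.47%) and none lower (background 5.97%) in Rptor fl/fl mice. These were Nt5e (1.30, edgeR adjusted p = 6.45e-07), an ectonucleotidase, Nuak2 (0.56, edgeR adjusted p = 0.00151), a kinase, and Ccdc80 (0.77, edgeR adjusted p = 0.0121), a matrix protein. Of the pathway genes 1 of 18 was higher, the LATS cofactor Mob1b (0.48, edgeR adjusted p = 0.0369), and none lower, with the same background shares.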

How the data were processed

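Adapters and ribosomal RNA fragments were removed from Ribo-seq reads by the authors, who then ran Salmon 1.1.0 on protein-coding sequences of GENCODE vM21 (mm10). The deposited files give estimated counts and an effective length per sequence. RNA-seq was counted on whole transcripts, organoid Ribo-seq on coding sequences with a short extension and, in entries left out here (2.97 to 6.98% of footprints), on 5′ regions, and mouse Ribo-seq mostly on 5′ region and coding sequence together. The deposited TPM was not used, and a further deposited table of the authors' own translation efficiency ratios and p-values was not used.

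Estimated counts were summed per gene, and over the 2 technical libraries of a line, and rounded to whole numbers. No 2 libraries held identical values. Each comparison was fitted on its own groups in R 4.3.3 with edgeR 4.0.16 (filterByExpr, TMM, quasi-likelihood test, two-sided, Benjamini-Hochberg adjustment over all genes tested, threshold 0.05). For translation efficiency the term tested was assay by group, with TMM within each assay and genes that passed the filter in both. The standard error is the log2 fold change divided by the square root of F. Scripts were tested on simulated data. Ratios of few counts have exact 95% intervals, and the floor was 3 counts.

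The 9 genes and the lists were chosen with earlier results of these data known. Named are the 9 genes, Rptor, at most the 4 genes of a list with the smallest adjusted p per comparison, and the 3 genes with the nearest RNA-seq profile, of which 1 is not reported here. Lats2, Tead4, Lgr5 and Olfm4 were named after their values had been seen. Alternatives were DESeq2 1.42.0, RLE scaling, no count filter, an effective length offset, the replicate number as a block, technical libraries as replicates, a fit over all RNA-seq lines, and leaving out each line or library.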

Additional observations from a re-analysis of the deposited data

Results flagged for a closer look

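The change in footprints differed from the change in mRNA between Rptor fl/fl and SCe organoids for Thbs1 and Ajuba, tested as the interaction of assay and group. The difference was −3.57 for Thbs1 (95% interval −5.31 to −1.82, edgeR adjusted p = 0.0417) and −2.34 for Ajuba (95% interval −3.21 to −1.47, edgeR adjusted p = 0.0158) on the log2 scale. Groups of 2 or 3 samples are too small for a sample to be called an outlier.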

How the results depend on the processing

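Over all alternatives, the 9 genes kept their direction and their side of the threshold in 80 of 88 values in RNA-seq of Rptor fl/fl against WT, 90 of 108 against SCe, 78 of 96 for SCe against WT, 65 of 77 in organoid footprints, 74 of 77 in mice and 98 of 112 in translation efficiency. The direction reversed for 5 uncalled values. Over the lines or libraries left out, Ccn2 ran from −1.41 to 0.072 in Rptor fl/fl against SCe mRNA (above 0 without Rptor fl/fl line 2), Ccn1 from −0.21 (without SCe line 1) to 1.70 and Ajuba from −0.32 to 0.074 (without SCe line 2) in SCe against WT, Myof from −0.87 to 0.14 in organoid footprints (above 0 without SCe library 1), and Axl from −0.10 (without Rptor fl/fl mouse 2) to 0.23 in mice. In the order of comparisons above, leaving out 1 line or library gave 6 to 8, 1 to 8, 0 to 5, 0 to 3, 1 to 2 and 0 to 4 listed genes called, and 939 to 2126, 2509 to 9101, 2027 to 9530, 669 to 2682, 897 to 1954 and 25 to 951 of all genes, where a group left with 1 line was assumed to vary like the other. Against 3195 genes called in Rptor fl/fl and WT mRNA, technical libraries as replicates gave 7208 and a fit over all RNA-seq lines 1544, with 5 listed genes. In SCe against WT, DESeq2 called 5 listed genes and technical libraries as replicates 6, against 3. Without a count filter 2 passed in mice, against 1. DESeq2 called 1206 genes in translation efficiency, against 315.

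With the replicate number as a block (a replicate block), 3413 genes were called in Rptor fl/fl against SCe mRNA, against 6452, 3154 in SCe against WT, against 6309, and 4 in translation efficiency, 0 of them listed. The numbers were not taken to pair the samples, since deviations of same-numbered samples correlated between −0.05 and 0.03 in Ribo-seq, and at 0.22 to 0.42 in RNA-seq, where the groups share only 2 numbers. Under the block Myof (0.86, edgeR adjusted p = 0.0237) and Thbs1 (1.25, 0.0459) passed against SCe and Axl (−2.34, 0.0872) did not, Myof passed (1.33, 0.0186) and Thbs1 did not (1.70, 0.0899) in SCe against WT, and Ccn2 did not in organoid footprints (−4.34, 0.0561). The cause of these changes was not tested. Depth limits Ankrd1 and Axl in organoid footprints and Ankrd1 and Ajuba in mice.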
